A study of Homo sapiens with 9 samples.

Results

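The ATP-binding cassette (ABC) transporter genes were taken as the rows of the count table whose symbol is ABC followed by a subfamily letter from A to G and a number. This rule, which uses no measured value, found 45 genes of the 20463 annotated genes in the table. A375 cells, an established human melanoma line, were grown for 48 h without treatment (control) or with salvianolic acid B (SalB), a phenolic compound of Salvia miltiorrhiza, at 100 µM or at 200 µM. All cells were kept in DMEM with serum, penicillin and streptomycin, and the labels give no solvent for the control cells. Each of the 3 groups had 3 mRNA-seq libraries, which the labels call biological replicates of this 1 cell line, and all 9 libraries carry the same batch value. In RNA from a whole culture, fewer cells of a type and less RNA per cell cannot be told apart.

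ABC proteins bind and hydrolyse ATP, and most of them use it to move a substrate across a membrane. Some sit at the cell surface and export drugs, anionic conjugates or lipids, others serve mitochondria, peroxisomes or lysosomes, and the E and F subfamilies have no membrane domain and work at the ribosome. In melanoma and other tumours the exporters ABCB1, ABCC1 and ABCG2 are known for carrying anticancer drugs out of cells, and ABCB5 has been used as a marker of a melanoma subpopulation.

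The exporters that were higher at 200 µM than in control cells were ABCB1, ABCC2, ABCC3, ABCC4 and ABCG2, and the RefSeq promoter windows of the 4 that had an entry are printed here because these genes were all higher at that dose. Each window runs from 250 bases before to 50 bases after the annotated start in GRCh38.p14 and is written 5′ to 3′ on the strand of the gene. They are chr7:87713246-87713545 (minus strand) for ABCB1, chr10:99782390-99782689 (plus strand) for ABCC2, chr13:95301402-95301701 (minus strand) for ABCC4 and chr4:88231577-88231876 (minus strand) for ABCG2. Capitals mark matches, on either strand, to the core letters of 6 elements: GGGCGG for SP1, CCAAT for NF-Y, CACGTG for E-box factors, GCGTG for the aryl hydrocarbon receptor, TGACNNNGC for NRF2, and GAAA followed after any 2 bases by a second GAAA for interferon regulatory factors.
ABCB1: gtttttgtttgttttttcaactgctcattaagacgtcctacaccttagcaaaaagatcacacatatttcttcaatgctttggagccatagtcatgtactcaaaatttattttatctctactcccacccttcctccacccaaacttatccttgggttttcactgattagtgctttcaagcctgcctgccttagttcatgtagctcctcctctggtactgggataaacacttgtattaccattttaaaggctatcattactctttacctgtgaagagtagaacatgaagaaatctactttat
ABCC2: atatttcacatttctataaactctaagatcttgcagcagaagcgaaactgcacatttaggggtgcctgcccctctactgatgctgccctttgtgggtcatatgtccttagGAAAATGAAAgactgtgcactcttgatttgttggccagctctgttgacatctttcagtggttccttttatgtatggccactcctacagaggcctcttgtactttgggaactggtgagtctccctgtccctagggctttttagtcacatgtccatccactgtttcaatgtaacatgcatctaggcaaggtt
ABCC4: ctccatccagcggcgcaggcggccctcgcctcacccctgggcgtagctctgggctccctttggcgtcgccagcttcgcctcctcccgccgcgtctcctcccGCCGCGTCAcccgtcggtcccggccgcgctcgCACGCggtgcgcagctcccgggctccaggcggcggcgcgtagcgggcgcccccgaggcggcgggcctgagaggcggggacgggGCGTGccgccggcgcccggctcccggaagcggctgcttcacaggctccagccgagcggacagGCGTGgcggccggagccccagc
ABCG2: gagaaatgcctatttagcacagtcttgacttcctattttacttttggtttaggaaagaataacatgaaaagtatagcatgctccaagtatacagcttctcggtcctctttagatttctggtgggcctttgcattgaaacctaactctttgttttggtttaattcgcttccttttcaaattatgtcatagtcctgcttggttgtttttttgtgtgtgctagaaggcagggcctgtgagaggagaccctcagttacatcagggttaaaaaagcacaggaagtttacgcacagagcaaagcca

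The ABCC4 window held 3 matches to GCGTG and 1 to TGACNNNGC, none of which overlapped. The ABCC2 window held 1 match to the interferon regulatory factor element, and the ABCB1 and ABCG2 windows held no match to any of the 6 motifs. Of the 35 ABC windows in the table, 37.1% held GCGTG, 20% held TGACNNNGC and 5.71% held the interferon regulatory factor element, against 36.3%, 13.6% and 3.6% of all 27305 promoter windows. GGGCGG was present in 51.4% of the ABC windows and 44.6% of all windows, CCAAT in 17.1% and 35.7%, and CACGTG in 11.4% and 7.4%. The GC content of the window was 37.7% for ABCB1, 45.0% for ABCC2, 79.7% for ABCC4 and 40.3% for ABCG2, so these 4 windows had no common base composition. A match describes letters and is not a binding site, and the table holds 1 window for each gene although ABCB1 and ABCG2 are known to have several start sites. ABCA4, ABCA8, ABCB4, ABCB5, ABCC1, ABCC3, ABCC8 and ABCG1 had no entry.

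Libraries held 29658753 to 30063195 counts in control cells, 29996059 to 30629685 at 100 µM and 27348621 to 28468350 at 200 µM. Replicate 3 at 200 µM stood apart: its mitochondrial mRNA share was 4.75%, against 1.87% and 1.83% in the other libraries at 200 µM, and its counts leaned to AT-rich genes while theirs leaned to GC-rich genes. Of the melanocyte lineage markers, SOX10 (91.9 RPKM), MIA (136 RPKM), S100B (28.7 RPKM) and MITF (3.98 RPKM) were present in control cells. The pigment genes PMEL, MLANA, TYR, TYRP1 and DCT averaged at most 0.327 RPKM in any group, so the lineage label rests on SOX10, MIA, S100B and MITF and not on the pigment genes. The summed fibroblast and endothelial list, of which 4 of 6 genes were tested, ran from 1.52 to 1.74 RPKM in control cells, 4.13 to 4.76 RPKM at 100 µM and 2.51 to 3.76 RPKM at 200 µM, mostly from PDGFRB. In that list PDGFRB was called higher at both doses (1.5 ± 0.17 at 100 µM and 0.89 ± 0.17 at 200 µM), COL1A1 was called higher at 100 µM (2.70 ± 0.50, edgeR adjusted p = 0.00299) and PECAM1 was called higher at 200 µM (1.82 ± 0.41, 0.00798), while CDH5 and COL1A2 had at most 2 and 4 counts in a library. The summed leukocyte list, with 2 of 5 tested, was 2.18 to 2.39, 1.68 to 2.44 and 0.973 to 2.07 RPKM in the same order, and the epithelial list, with 2 of 5 tested, was 59.4 to 61.3, 80.4 to 88.9 and 82.3 to 105 RPKM, nearly all of it KRT18, which was called higher at both doses (0.49 ± 0.09 at 100 µM and 0.65 ± 0.09 at 200 µM). Of the leukocyte markers, LYZ was lower at 200 µM (-0.95 ± 0.26, edgeR adjusted p = 0.0174), CD14 averaged 0.205 CPM in control cells, 0.334 CPM at 100 µM and 0.998 CPM at 200 µM and passed the filter on low counts only through the 200 µM libraries, PTPRC had at most 3 counts and CD3E none. Of the epithelial markers, KRT14 averaged 1.28, 1.30 and 1.34 CPM in that order and was not called, EPCAM had at most 9 counts and KRT5 none. Whether these shifts had a part in the ABC values was not tested.

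In untreated A375 cells the ABC genes spanned more than 3 orders of magnitude in RPKM, which is CPM per kilobase of exon and so can be compared between genes. CPM here means deposited counts relative to library sizes scaled by the trimmed mean of M values (TMM). ABCE1, an essential ribosome recycling factor, was highest at 39.9 ± 1.93 RPKM (SD, n = 3), followed by ABCF2 at 22.7 ± 0.43 RPKM and the mitochondrial transporter ABCB10 at 11.1 ± 0.76 RPKM. ABCC2 led the drug and anion exporters at 8.14 ± 0.18 RPKM. It stood close to ABCD3 at 7.49 ± 0.60 RPKM, with standard deviations that overlapped. ABCC4 followed at 5.87 ± 0.43 RPKM, ABCC1 was at 1.69 ± 0.12 RPKM, ABCG2 at 1.17 ± 0.071 RPKM, ABCC3 at 1.04 ± 0.11 RPKM and ABCB1 at 0.777 ± 0.025 RPKM. The cholesterol exporter ABCA1 had 0.199 ± 0.059 RPKM, and ABCA13 was the lowest tested member at 0.0241 ± 0.012 RPKM.

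**Figure D1:**
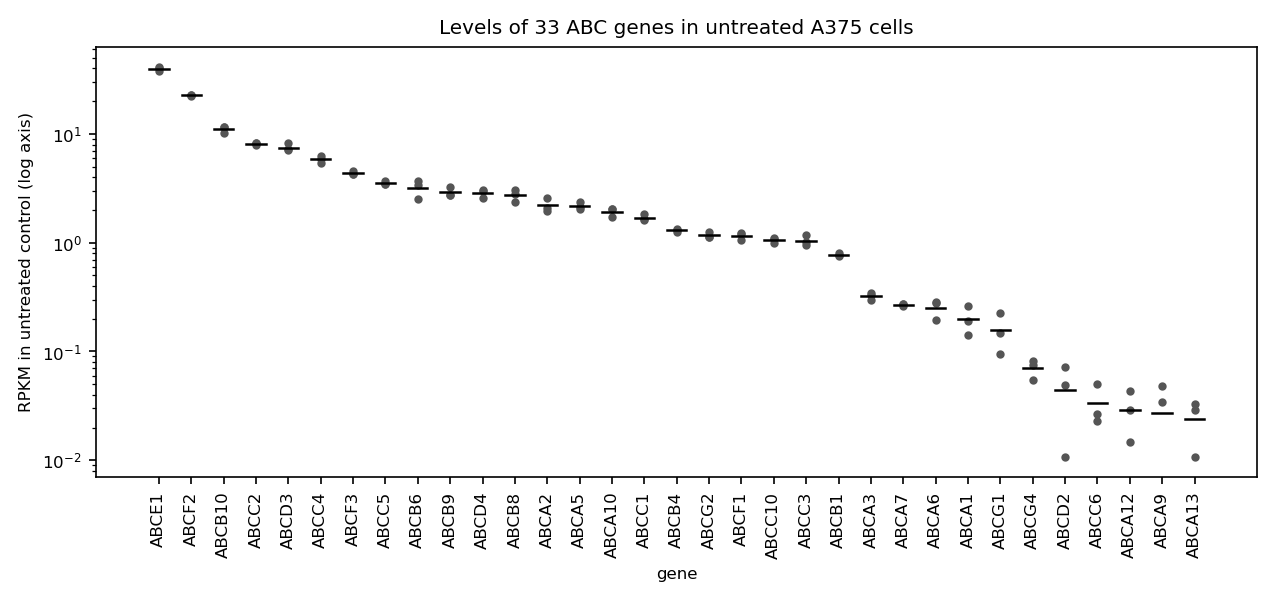
Level of 33 tested ABC genes in untreated A375 cells, in RPKM on a log axis, with genes in order of their mean; points are the 3 libraries and bars the mean. ABCE1 stands at the top with 39.9 RPKM and ABCA13 at the bottom with 0.0241 RPKM; a library with no count, as for ABCA9, is not drawn.

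The filter on low counts removed 10 of the 45 members. These were the sulfonylurea receptors ABCC8 and ABCC9, which are subunits of potassium channels, the retinal transporter ABCA4, the bile salt exporter ABCB11, the sterol transporters ABCG5 and ABCG8, and ABCA8, ABCB5, ABCC11 and ABCC12. Their counts ran from 0 to 14 in a library. ABCB5 had 0, 0 and 4 counts in control cells and no count in any of the 6 SalB libraries, where a count of 0 allows up to 0.119 CPM in a library (3 counts, counting error only). ABCA9, ABCA12, ABCA13, ABCC6 and ABCD2 would have had too few libraries above the filter's 0.34 CPM without the 100 µM libraries. They entered the tests through that group, so that their calls against it follow in part from the filter, and their levels are given here without such a test.

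Each comparison was tested over all 13968 genes that passed the filter with edgeR's quasi-likelihood test and Benjamini-Hochberg adjustment, and calls needed an adjusted p below 0.05 but no set size of change. At 100 µM against control, 10 of the 35 tested ABC genes were called higher and 6 lower, where 37.1% of all genes were called (18.9% higher and 18.2% lower). The median log2 fold change was 0.22 over these ABC genes and -0.01 over all genes. At 200 µM against control, 8 were called higher and 5 lower, where 37.3% of all genes were called (19.8% higher and 17.5% lower), with medians of -0.05 and 0.00. Between 200 µM and 100 µM, 7 were higher and 9 lower at 200 µM, where 44.4% of all genes were called (22.4% higher and 21.9% lower), with medians of -0.12 and -0.01. The share of ABC genes called was 45.7%, 37.1% and 45.7% in the 3 comparisons, at or near that of all genes. In all, 22 of the 35 were called in at least 1 comparison and 13 in none. The same count was not made over all genes, so these numbers are not read as a trait of the ABC genes. Over the 30 members that did not need the 100 µM libraries to pass the filter, 9 were higher and 6 lower at 100 µM, 8 were higher and 4 lower at 200 µM, and 7 were higher and 7 lower between the doses. The comparisons share samples: each dose is set against the same 3 control libraries. Without replicate 3 at 200 µM, 37 members were tested, and 13 were higher and 7 lower at 100 µM against control, 12 and 8 at 200 µM against control, and 8 and 10 between the doses. The shares of all genes called in that fit were larger too, at 56.1%, 53.8% and 54.2%.

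**Figure D2:**
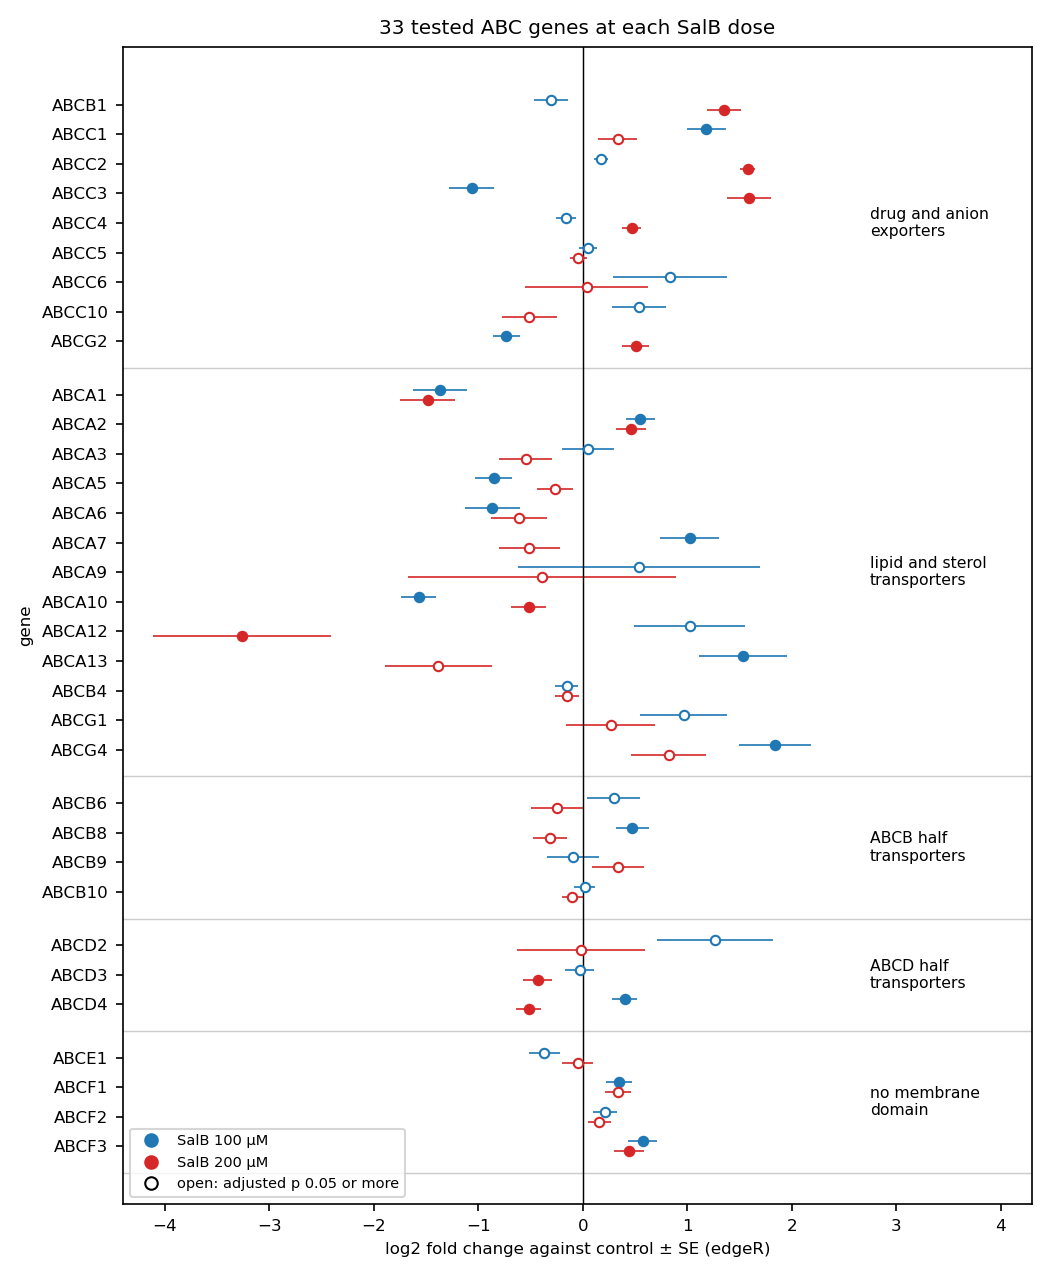
Log2 fold change against control of 33 tested ABC genes at 100 µM (blue) and 200 µM (red), grouped by role, with bars of 1 SE from edgeR; filled points had an adjusted p under 0.05. Of the 9 exporters, 1 was higher and 2 were lower at 100 µM, and 5 were higher and none lower at 200 µM, where 18.9% and 18.2% of all genes were higher and lower at 100 µM and 19.8% and 17.5% at 200 µM; the ABCB and ABCD groups hold genes whose protein is a subunit of a dimer.

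Among the 9 tested drug and anion exporters, ABCC1 was higher and ABCC3 and ABCG2 were lower at 100 µM than in control cells. At 200 µM the picture differed: ABCB1, ABCC2, ABCC3, ABCC4 and ABCG2 were higher than in control cells and none was lower. Against 100 µM, the same 5 genes were higher at 200 µM, and ABCC1 and ABCC10 were lower. The share of the group called was 33.3% at 100 µM and 55.6% at 200 µM against control, and 77.8% between the doses, where 37.1%, 37.3% and 44.4% of all genes were called. The median log2 fold change of the group was 0.05 at 100 µM and 0.47 at 200 µM against control.

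ABCC2 (MRP2, chr10:99782640-99852594, GRCh38) exports glutathione, glucuronide and sulfate conjugates, known best from the bile canaliculus. It had 64.2, 65.0 and 62.3 CPM in control cells, 75.4, 70.8 and 70.2 CPM at 100 µM and 189, 195 and 187 CPM at 200 µM. The 3 groups did not overlap, and the libraries at 200 µM lay far above the others. The log2 fold change was 1.58 ± 0.07 (SE) at 200 µM against control (edgeR adjusted p = 1.42e-06), 2.98-fold higher, 1.40 ± 0.07 between the doses (1.14e-06) and 0.18 ± 0.07 at 100 µM, which was not called (edgeR adjusted p = 0.0691). The small difference at 100 µM passed the threshold under 7 of the 19 alternatives, for example with 0.20 (edgeR adjusted p = 0.00822) without replicate 3 at 200 µM and 0.27 (0.0168) with offsets for GC content. ABCC2 was the only member among the 100 features of the authors' deposited table, where it had 10.3, 10.8 and 10.1 FPKM in control cells, 12.8, 12.2 and 11.8 FPKM at 100 µM and 30.8, 31.5 and 28 FPKM at 200 µM, a unit inferred from the values.

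ABCC3 (MRP3, chr17:50634777-50692252), a basolateral exporter of glucuronides and bile acids, changed in opposite directions at the 2 doses. It had 9.74, 9.20 and 11.2 CPM in control cells, 3.47, 5.19 and 5.77 CPM at 100 µM and 30.8, 36.2 and 23.9 CPM at 200 µM. No library of any group overlapped with another group. The log2 fold change was -1.06 ± 0.21 at 100 µM against control (edgeR adjusted p = 0.00458), 1.59 ± 0.21 at 200 µM against control (0.00044) and 2.65 ± 0.22 between the doses (1.88e-05), 6.3-fold higher at 200 µM.

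ABCG2 (breast cancer resistance protein, chr4:88090264-88231322), an exporter of drugs, urate and porphyrins, followed the same order. It had 6.31, 5.65 and 5.74 CPM in control cells, 3.34, 4.06 and 3.24 CPM at 100 µM and 8.38, 8.51 and 8.26 CPM at 200 µM, again with no overlap. Its log2 fold change was -0.73 ± 0.13 at 100 µM (edgeR adjusted p = 0.0024), 0.51 ± 0.13 at 200 µM (0.0124) and 1.24 ± 0.13 between the doses (7.7e-05). The change at 200 µM missed the threshold without control replicate 2 (0.48, edgeR adjusted p = 0.0519).

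ABCB1 (P-glycoprotein, chr7:87503633-87713323), the broad exporter of hydrophobic drugs, was higher at 200 µM alone. It had 4.37, 4.51 and 4.66 CPM in control cells, 3.69, 3.76 and 3.50 CPM at 100 µM and 9.36, 11 and 14.3 CPM at 200 µM. Every library at 200 µM lay above all others, and those at 100 µM lay below control without overlap. The log2 fold change was 1.35 ± 0.16 at 200 µM against control (edgeR adjusted p = 0.000264) and 1.66 ± 0.16 against 100 µM (5.37e-05), and the -0.30 ± 0.16 at 100 µM against control was not called (0.174). The adjacent gene ABCB4, a phosphatidylcholine transporter that lies 23197 bases from ABCB1, was called in no comparison and had 9.63, 10.4 and 10.1 CPM in control cells, 8.64, 8.89 and 9.56 CPM at 100 µM and 8.34, 9.97 and 8.86 CPM at 200 µM.

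ABCC4 (MRP4, chr13:95019829-95301475), an exporter of cyclic nucleotides and urate, was higher at 200 µM. It had 51.2, 54.2 and 46.7 CPM in control cells, 44.4, 45.5 and 46.0 CPM at 100 µM and 68.2, 64.6 and 77.4 CPM at 200 µM, where every library lay above all others. This gave a log2 fold change of 0.47 ± 0.09 at 200 µM against control (edgeR adjusted p = 0.00419), 0.63 ± 0.09 against 100 µM (0.000635) and -0.16 at 100 µM against control, not called (0.207).

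ABCC1 (MRP1, chr16:15949577-16143074), which exports leukotriene C4 and glutathione conjugates, was higher at 100 µM. It had 12.4, 12.2 and 13.8 CPM in control cells, 30.4, 28.2 and 28.9 CPM at 100 µM and 15.6, 21.2 and 11.6 CPM at 200 µM. The libraries at 100 µM lay above all others, while those at 200 µM overlapped with control. This gave a log2 fold change of 1.18 ± 0.19 at 100 µM against control (edgeR adjusted p = 0.00148) and -0.85 ± 0.19 at 200 µM against 100 µM (0.00564). At 200 µM against control it was 0.33, not called (0.197), but 0.54 and called without replicate 3 at 200 µM (0.0047). ABCC6, which lies 5853 bases from ABCC1, had at most 0.584 CPM in a library and was called in no comparison, and related copies of ABCC6 make its counts uncertain.

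ABCC10 (MRP7), an exporter of lipophilic anions, had 8.91, 7.96 and 8.68 CPM in control cells, 12.5, 13.0 and 11.7 CPM at 100 µM and 6.85, 7.76 and 3.26 CPM at 200 µM. The 3 groups did not overlap, and the call was between the doses only, at -1.05 ± 0.26 (edgeR adjusted p = 0.0102). It was called against control at 100 µM with 0.55 (0.00049) in a fit of those 2 groups alone and with 0.56 (0.000896) without replicate 3 at 200 µM, and at 200 µM with -0.66 (0.0166) with GC offsets. ABCC5, a cyclic nucleotide exporter, was called in no comparison and lay between 37.1 and 44.1 CPM in all 9 libraries.

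**Figure D3:**
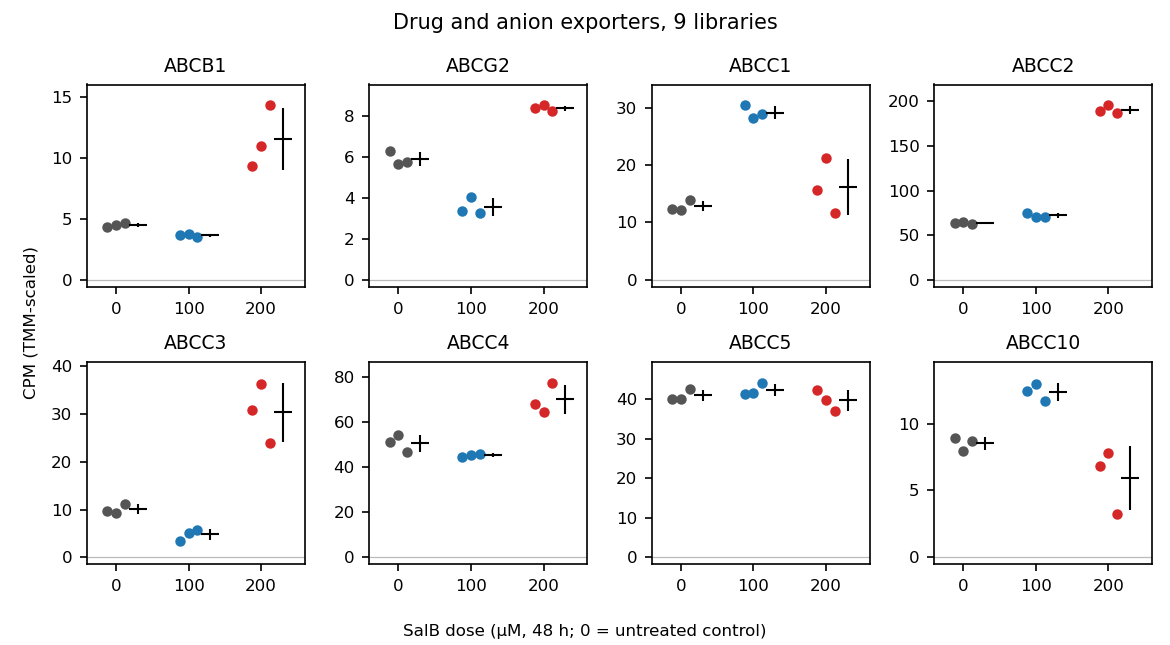
CPM of 8 drug and anion exporters in the 9 libraries by SalB dose in µM, each panel with its own linear axis from 0; points are libraries and the cross beside them is the mean ± SD (n = 3). ABCC2 at 187 to 195 CPM and ABCB1 at 9.36 to 14.3 CPM are highest at 200 µM, ABCC1 is highest at 100 µM, and ABCC3 and ABCG2 are lowest at 100 µM and highest at 200 µM.

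Glutathione is the partner of many ABCC substrates. Of 15 tested genes that supply or use it, 1 was higher and 5 were lower at 100 µM than in control cells, and 6 were higher and 1 was lower at 200 µM. These are 40% and 46.7% of the list, near the 37.1% and 37.3% of all genes. GSTO1 (-0.82 ± 0.14), MGST3 (-0.81 ± 0.16) and GSTM3 (-0.56 ± 0.09), all glutathione transferases, were lower at 100 µM. GCLM, the modifier subunit of the enzyme that starts glutathione synthesis, was higher at 200 µM by a log2 fold change of 1.23 ± 0.15. GGT1, which splits extracellular glutathione, had no count in any control library, 11 to 31 counts at 100 µM and 5 to 8 counts at 200 µM. It was the 1 gene counted as higher at 100 µM, and it passed the filter only through the libraries at 100 µM, so its call there is not read as a result. GGT1 is also among the 6 counted as higher at 200 µM. Of 13 tested regulators of exporter genes, 2 were higher and 2 lower at 100 µM, and 4 were higher and 3 lower at 200 µM, or 30.8% and 53.8% of the list. NFKB1 (-0.88 ± 0.07) and MITF (-0.70 ± 0.15) were lower at 100 µM, and ETS1 (0.94 ± 0.07) and RELA (0.70 ± 0.09) were higher at 200 µM.

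Of the 13 tested lipid and sterol transporters, ABCA2, ABCA7 and ABCG4 were higher and ABCA1, ABCA5, ABCA6 and ABCA10 were lower at 100 µM than in control cells. At 200 µM, ABCA2 was higher and ABCA1, ABCA10 and ABCA12 were lower. Against 100 µM, ABCA5 and ABCA10 were higher and ABCA7 and ABCG4 were lower at 200 µM. The share called was 61.5% at 100 µM, 30.8% at 200 µM and 46.2% between the doses, where 37.1%, 37.3% and 44.4% of all genes were called. ABCA12 and ABCA13 are among those that passed the filter through the 100 µM libraries. The call of ABCA13 at 100 µM and the calls of both genes between the doses are counted in these shares but not read as results.

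ABCA1 (chr9:104781002-104928237), which loads cholesterol and phospholipid onto apolipoprotein A-I, was lower at both doses. It had 2.18, 2.96 and 1.62 CPM in control cells, 0.867, 0.876 and 0.875 CPM at 100 µM and 0.725, 0.926 and 0.755 CPM at 200 µM. All 6 SalB libraries lay below all control libraries, and the doses overlapped with each other. The log2 fold change was -1.36 ± 0.26 at 100 µM (edgeR adjusted p = 0.00339) and -1.49 ± 0.26 at 200 µM (0.00219), 2.58-fold and 2.8-fold lower, and it kept its call under all 19 alternatives at both doses. ABCG1, which passes cholesterol to high-density lipoprotein, was called in no comparison, with 0.901, 0.586 and 1.38 CPM in control cells, 1.61, 1.62 and 2.40 CPM at 100 µM and 0.689, 1.82 and 0.953 CPM at 200 µM. It was called higher at 100 µM, by 0.97 (0.0196), in a fit of control and 100 µM alone. Without replicate 2 at 200 µM it was also called, with 0.99 (0.0462) at 100 µM against control and -1.22 (0.0334) at 200 µM against 100 µM.

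ABCA10 (chr17:69147214-69244846), ABCA5 and ABCA6 are neighbours in the ABCA cluster of chromosome 17, and all 3 were lower at 100 µM. ABCA10 had 14.6, 17.2 and 17 CPM in control cells, 4.59, 5.81 and 6.03 CPM at 100 µM and 12.6, 8.97 and 12.5 CPM at 200 µM, with no overlap between groups. Its log2 fold change was -1.57 ± 0.17 at 100 µM against control (edgeR adjusted p = 0.000183), -0.52 ± 0.16 at 200 µM against control (0.0352) and 1.05 ± 0.17 between the doses (0.000999). The change at 200 µM lost its call under 9 alternatives, with adjusted p between 0.0513 and 0.141, among them without control replicates 1, 2 or 3 and with GC offsets. ABCA5, which acts in lysosomal cholesterol handling, was lower at 100 µM with a log2 fold change of -0.85 ± 0.18 (0.00536) and higher at 200 µM than at 100 µM by 0.59 ± 0.18 (0.0239), and ABCA6 was lower at 100 µM with a log2 fold change of -0.86 ± 0.27 (0.0315). The difference of ABCA5 between the doses was lost without replicate 1 (0.0883) or 2 (0.0609) at 100 µM, and the change of ABCA6 without control replicate 2 or 3 or any single library at 100 µM (0.0513 to 0.108). Without replicate 3 at 200 µM both were also lower at 200 µM than in control cells, ABCA5 with -0.49 (0.00321) and ABCA6 with -0.87 (0.0139). With GC offsets the changes at 100 µM were -0.22 for ABCA5 (0.0725) and -0.51 for ABCA6 (0.0726), neither called. ABCA10 and ABCA5 overlap by 536 bases on the same strand, and the other genes of the cluster were ABCA9, called in no comparison, and ABCA8, which did not pass the filter.

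ABCA7 (chr19:1040101-1065572), a phospholipid transporter related to ABCA1, had 2.29, 2.20 and 2.30 CPM in control cells, 4.21, 5.09 and 4.51 CPM at 100 µM and 1.70, 2.21 and 0.834 CPM at 200 µM. The libraries at 100 µM lay above all others. This gave a log2 fold change of 1.02 ± 0.28 at 100 µM against control (edgeR adjusted p = 0.0206) and -1.53 ± 0.29 at 200 µM against 100 µM (0.00258). Without any single control library, or without replicate 2 or 3 at 100 µM, the first of these had adjusted p between 0.0504 and 0.0693. At 200 µM against control ABCA7 was not called at -0.51 (0.205), but was at -0.83 (0.0494) without replicate 2 at 200 µM and at -0.71 (0.0175) with GC offsets.

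ABCG4 (chr11:119149012-119162653), a sterol exporter best known from brain, had 0.347, 0.517 and 0.473 CPM in control cells, 1.19, 1.43 and 2.20 CPM at 100 µM and 1.05, 0.570 and 0.755 CPM at 200 µM. Both doses lay above control and did not overlap with each other. This gave a log2 fold change of 1.84 ± 0.35 at 100 µM against control (edgeR adjusted p = 0.00339), 3.58-fold higher, and -1.02 ± 0.33 between the doses (0.0327). The difference between the doses lost its call under 8 alternatives, with adjusted p between 0.05 and 0.128, among them without replicate 3 at 100 µM.

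ABCA12 and ABCA13 were close to the limit of detection. ABCA12, a lipid transporter of skin keratinocytes, had 0.139, 0.276 and 0.405 CPM in control cells, 0.610, 0.519 and 0.551 CPM at 100 µM and 0.0725, 0 and 0 CPM at 200 µM. It had 24 counts over the control libraries, 52 over those at 100 µM and 2 over those at 200 µM. The level at 200 µM was 0.0902 times that of control (95% exact interval 0.0103 to 0.363, counting error only). The difference at 200 µM against control had an edgeR adjusted p of 0.0152, or 0.0554 without control replicate 3. ABCA13 had 0.624, 0.551 and 0.203 CPM in control cells, 0.867, 1.62 and 1.52 CPM at 100 µM and 0.218, 0.142 and 0.159 CPM at 200 µM, with an overlap between 200 µM and control only. The libraries at 100 µM, through which it passed the filter, lay above all others. At 200 µM against control its log2 fold change of -1.38 was not called (edgeR adjusted p = 0.0603), but became -1.74 (0.019) without control replicate 3.

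ABCA2, an endosomal and lysosomal transporter, was higher at 100 µM by 0.55 ± 0.14 (edgeR adjusted p = 0.0137) and at 200 µM by 0.46 ± 0.14 (0.0284). The first call was lost with GC offsets (0.19, 0.103) and without control replicate 1 or 2 or replicate 1 at 100 µM (0.0528 to 0.0622). The second was lost under 7 alternatives (0.0513 to 0.111), among them without control replicate 1 or 2. ABCA3, the surfactant lipid transporter of lung, was called in no comparison and averaged 0.325 RPKM in control cells, 0.337 RPKM at 100 µM and 0.222 RPKM at 200 µM, and without replicate 2 at 200 µM it was lower at 200 µM than at 100 µM (-0.81, 0.039). ABCA9 was called in no comparison and had from 0 to 0.596 CPM in a library. Its counts were 9, 0 and 13 in control cells and 0, 0 and 15 at 200 µM. A fit without replicate 3 at 200 µM leaves ABCA9 no count at that dose. The call of lower than control in that fit (edgeR adjusted p = 0.0368) follows from this and is not read as a result.

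**Figure D4:**
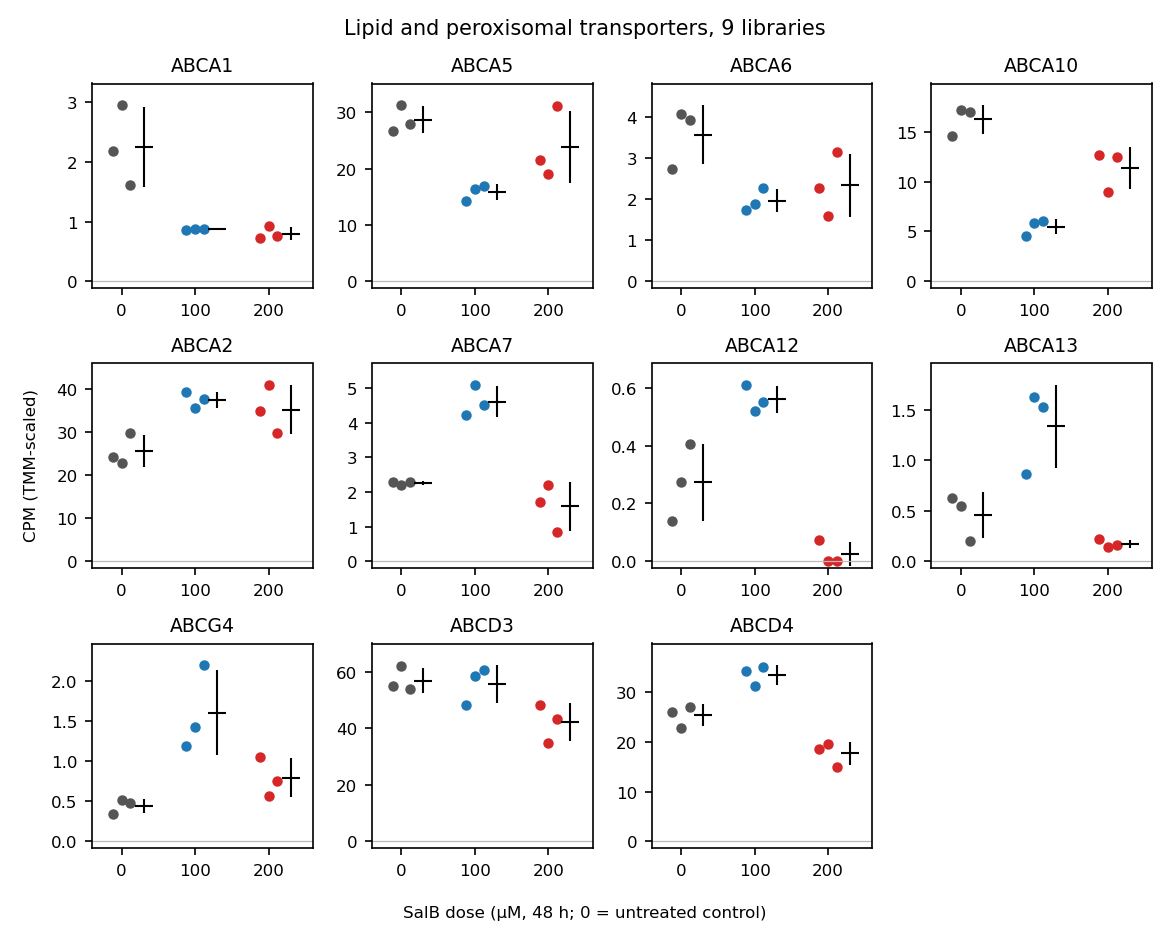
CPM of 11 lipid, peroxisomal and lysosomal transporters in the 9 libraries by SalB dose in µM, each panel with its own linear axis; points are libraries and the cross is the mean ± SD (n = 3). ABCA1 is lower at both doses, ABCA10 is lowest at 100 µM, and ABCA12 has 2 libraries at 0 at 200 µM.

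Of 16 partners of ABCA1 in sterol handling, 7 were higher and 2 lower at 100 µM than in control cells, and 8 were higher and 1 lower at 200 µM. These are 56.2% of the list at each dose, against 37.1% and 37.3% of all genes. SREBF1, a master regulator of lipid synthesis, was higher at 100 µM by 1.47 ± 0.15, as were RXRA (0.97 ± 0.20), the partner of liver X receptors, and the lipoprotein receptor SCARB1 (0.90 ± 0.09), while the lysosomal sterol carrier NPC2 was lower (-0.89 ± 0.08). At 200 µM the cholesterol acceptor APOE was higher by 1.66 ± 0.34, the lysosomal sterol exporter NPC1 by 1.24 ± 0.10 and the phospholipid carrier PLTP by 0.94 ± 0.08.

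Among the peroxisomal and lysosomal ABCD genes, ABCD4 was higher at 100 µM than in control cells, and ABCD3 and ABCD4 were lower at 200 µM. ABCD4 (chr14:74285423-74303056), needed to release vitamin B12 from lysosomes, had 26.1, 22.8 and 27.0 CPM in control cells, 34.3, 31.2 and 34.9 CPM at 100 µM and 18.5, 19.5 and 15 CPM at 200 µM. The groups did not overlap. Its log2 fold change was 0.40 ± 0.12 at 100 µM (edgeR adjusted p = 0.0265), -0.52 ± 0.12 at 200 µM (0.00878) and -0.92 ± 0.12 between the doses (0.000304). The increase at 100 µM lost its call without control replicate 1 or 2, or replicate 1 or 3 at 100 µM (0.067 to 0.107).

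ABCD3, which imports branched fatty acids and bile acid precursors, was lower at 200 µM with a log2 fold change of -0.43 ± 0.14 (edgeR adjusted p = 0.0361) and of -0.40 ± 0.14 against 100 µM (0.0401). Both calls were lost when single libraries were left out, among them each of the control libraries, with adjusted p between 0.0531 and 0.126. With GC offsets ABCD3 was higher at 100 µM by 0.38 (0.0216), where the value without them was -0.03. ABCD2, a peroxisomal fatty acid transporter, was called in no comparison and averaged 0.0442 RPKM in control cells, 0.107 RPKM at 100 µM and 0.0437 RPKM at 200 µM. Of 14 partners in peroxisome import and fatty acid oxidation, 2 were higher and 3 lower at 100 µM, and 3 were higher and 1 lower at 200 µM, or 35.7% and 28.6% of the list, near or below the share of all genes. The carnitine transferase CPT1A was higher at 100 µM by 0.67 ± 0.09, and the acyl-CoA synthetase ACSL1 was higher at 200 µM by 1.19 ± 0.10.

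Among the mitochondrial and lysosomal ABCB genes, the fit of all libraries called 1, ABCB8, a mitochondrial inner membrane transporter, which was higher at 100 µM by 0.47 ± 0.16 (edgeR adjusted p = 0.0435) and lower at 200 µM than at 100 µM with a log2 fold change of -0.79 ± 0.16 (0.00382). The first call was lost in 11 alternatives, with adjusted p between 0.0503 and 0.22, among them each fit without 1 control or 1 100 µM library, and the value at 200 µM against control was called with GC offsets (-0.45, 0.0029). ABCB10, linked to heme synthesis, averaged 11.1 RPKM in control cells, 11.2 RPKM at 100 µM and 10.3 RPKM at 200 µM, with 3 annotated pseudogenes. ABCB6, a porphyrin transporter, averaged 3.20, 3.93 and 2.71 RPKM in that order, and shares 54.7% of its exon bases with another gene of the same strand. Without replicate 2 at 200 µM it was lower at 200 µM than at 100 µM (-0.85, 0.0125). ABCB9, a lysosomal peptide transporter, averaged 2.90, 2.72 and 3.67 RPKM in that order, and replicate 3 at 200 µM, at 27.6 CPM against 56.9 and 61.7 CPM in the other libraries at 200 µM, moved its call: without it ABCB9 was higher at 200 µM than in control cells by 0.63 (edgeR adjusted p = 0.000238). With GC offsets it was lower at 100 µM than in control cells (-0.46, 0.0282) and higher at 200 µM than at 100 µM (0.61, 0.00486). ABCB9 shares 24.5% of its exon bases with genes of the other strand. Of 19 partners in heme and iron-sulfur synthesis, 3 were higher and 3 lower at 100 µM, and 1 was higher and 5 lower at 200 µM, or 31.6% of the list at each dose, below the share of all genes. ALAS1, the first enzyme of heme synthesis, was lower at 100 µM with a log2 fold change of -0.44 ± 0.08 and higher at 200 µM by 0.66 ± 0.08, and the ferredoxin FDX1 was lower at 100 µM with a log2 fold change of -0.65 ± 0.15.

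Of the 4 members without a membrane domain, ABCF1 and ABCF3 were higher at 100 µM and ABCF3 was higher at 200 µM. ABCE1 (chr4:145097932-145129179), which splits ribosomes after termination, had 251, 261 and 237 CPM in control cells, 179, 201 and 201 CPM at 100 µM and 235, 188 and 301 CPM at 200 µM. The libraries at 100 µM lay below all control libraries, and those at 200 µM were spread over both. ABCE1 was called in no comparison, with -0.37 ± 0.15 at 100 µM (edgeR adjusted p = 0.0833). With GC offsets that value was 0.004 (0.955). It was called there in a fit of control and 100 µM alone (-0.36, 0.00019) and without replicate 2 (-0.34, 0.0226) or replicate 3 (-0.34, 0.00433) at 200 µM, and was higher at 200 µM than at 100 µM without replicate 2 at 200 µM (0.44, 0.0101). It shares 11.9% of its exon bases with genes of the other strand. ABCF3 was higher by 0.57 ± 0.14 at 100 µM (0.0114) and 0.44 ± 0.14 at 200 µM (0.0339). The call at 200 µM was lost in 11 alternatives (0.0527 to 0.104), among them each fit without 1 control or 1 100 µM library and those without replicate 1 or 2 at 200 µM. ABCF1, a translation initiation factor, was higher at 100 µM by 0.35 ± 0.12 (0.0496), a call lost in 12 alternatives (0.0592 to 0.202), among them each fit without 1 control or 1 100 µM library. At 200 µM against control its 0.34 was not called (0.0555), but became 0.41 (0.0187) without replicate 3 at 200 µM. ABCF1 lies in the major histocompatibility region of chromosome 6, where 122 protein-coding genes with counts had a median control level of 0.399 RPKM. The 755 others of the chromosome had 2.16 RPKM. Whether reads of the region were lost was not tested, and the level of ABCF1 is taken as uncertain. ABCF2 was called in no comparison, averaged 22.7, 26.4 and 25.3 RPKM in control, 100 µM and 200 µM cells, and has 2 annotated pseudogenes and a same-strand overlap of 45.8% of its exon bases. Without replicate 3 at 200 µM it was higher at 100 µM by 0.24 (0.00273) and at 200 µM by 0.30 (0.0014). Of 13 partners in ribosome recycling and the stress response of translation, 2 were higher and 4 lower at 100 µM, and 3 were higher and 1 lower at 200 µM. These are 46.2% and 30.8% of the list, against 37.1% and 37.3% of all genes. GCN1, which senses stalled ribosomes, was higher at 100 µM by 1.01 ± 0.12, and the termination factor GSPT1 was higher at 200 µM by 0.56 ± 0.10.

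Fold changes varied with the GC content of the transcript. At 100 µM, the ABC genes called higher had a median GC content of 58.1%, those called lower 39.9% and those not called 44.9%. Spearman's rho between GC content and log2 fold change was 0.41 over the 35 ABC genes and 0.48 over 13874 genes at 100 µM, 0.27 and 0.22 at 200 µM, and -0.20 and -0.22 between 200 µM and 100 µM, given here as a description of points that share libraries. With offsets for GC content, 11 ABC genes were higher and 5 lower at 100 µM, 11 of the 16 calls without offsets being among them. In that fit 38.7% of all 13968 genes were called, 2921 higher and 2487 lower. ABCC1 (1.00), ABCC3 (-1.26), ABCA1 (-1.29), ABCA10 (-1.13) and ABCG4 (1.54) kept their calls at 100 µM with these log2 fold changes. At 200 µM, ABCB1 (1.39), ABCC2 (1.59), ABCC3 (1.5), ABCC4 (0.51), ABCG2 (0.61) and ABCA1 (-1.48) kept theirs.

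**Figure D5:**
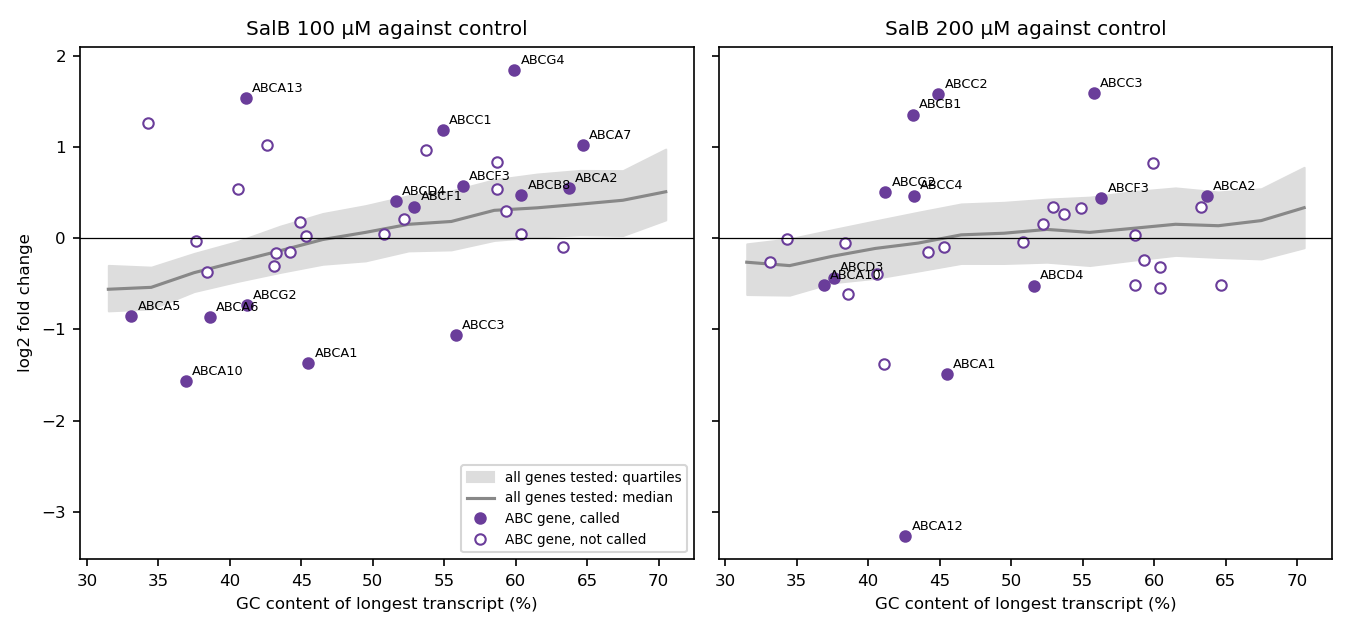
Log2 fold change of the ABC genes against the GC content of their longest transcript in percent, at 100 µM (left) and 200 µM (right) against control; filled points are called, open points are not, and the grey line and band are the median and quartiles of all tested genes in bands of GC content. At 100 µM the band runs upward with GC content, and ABCC3, ABCA1 and ABCA10 are among the genes below it and ABCG4 among those above it. ABCA13 also lies above it at 100 µM, but it passed the filter through the 100 µM libraries and this is not read as a result. At 200 µM ABCB1, ABCC2, ABCC3, ABCC4 and ABCG2 are among the genes above the band, and ABCA1 is among those below it.

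Between 200 µM and 100 µM, the partner lists gave 7 genes higher and 3 lower of 16 for sterol handling, 5 and 1 (GGT1) of 15 for glutathione, 4 and 1 of 13 for exporter regulators, 4 and 3 of 14 for peroxisomes, 3 and 4 of 19 for heme and iron-sulfur synthesis and 5 and 2 of 13 for ribosome recycling. Over all genes tested in this comparison 22.4% were higher and 21.9% lower. The call of GGT1, which passed the filter only through the 100 µM libraries, is not read as a result. GCLM (1.55 ± 0.15) and ALAS1 (1.10 ± 0.08) were higher at 200 µM than at 100 µM, and SREBF1 was lower (-1.08 ± 0.15). Exon overlaps are given where they reach 10% of a member's exon bases, and smaller ones are not marked.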

How the data were processed

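RNA of A375 cells in 3 groups of 3 libraries was measured by poly(A)-selected mRNA sequencing. Read counts per gene were deposited by the authors as whole numbers without normalization; the tools named in the submitters' processing notes, without versions, are HISAT2, featureCounts, FastQC and DESeq2, on the GRCh38 build. Annotation release and strand setting: not given in the sources used here. A second table deposited by the authors holds 100 features in values read as FPKM, a unit inferred from the values. Features without an Ensembl identifier (2142 assembled transcripts) were left out, which took 1.25% to 1.41% of a library's counts.

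Counts were tested with edgeR 4.0.16 in R 4.3.3: filterByExpr, TMM scaling and a robust quasi-likelihood fit of all 9 libraries with group as the only term (6 residual degrees of freedom), with p-values adjusted over all genes tested. SE was taken as the size of a log2 fold change over the root of its F statistic. With 3 libraries against 3, an exact permutation test of 1 gene cannot go below p = 0.1, so only the fit across all genes was used. Positions, exon lengths and GC content came from GENCODE 29 on GRCh38, and promoters from RefSeq. The 19 alternatives included other scalings and filters, DESeq2 1.42.0, GC offsets, a replicate block and leaving out each library.

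Members called in any comparison were named with fold changes. Some genes are not reported here by name, though the counts over members and lists include them. All 9 values were given for those called with a log2 change of 1 or more either way, for ABCB1, ABCC1, ABCG2, ABCA1, ABCB5 and ABCE1, and for some others. At most 4 called genes were named per partner list and comparison. The members and lists were chosen with earlier results of these data known.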

Additional observations from a re-analysis of the deposited data

Results flagged for a closer look

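For 3 ABC genes the change against control was called in opposite directions at the 2 doses, and the difference between the doses was also called. Both doses are set against the same control libraries, and the difference between the doses follows from the 2 changes, so its call is not separate evidence. Such genes were not counted over all genes tested, so their number is not read as a trait of the ABC genes. ABCC3 had a log2 fold change of 1.59 at 200 µM and -1.06 at 100 µM against control, a difference of 2.65 (edgeR adjusted p = 1.9e-05). ABCG2 had 0.51 at 200 µM and -0.73 at 100 µM, a difference of 1.24 (edgeR adjusted p = 7.7e-05). ABCD4 had -0.52 at 200 µM and 0.40 at 100 µM, a difference of -0.92 (edgeR adjusted p = 0.0003). The call of ABCD4 at 100 µM was lost in 6 of the 19 alternatives, and that of ABCG2 at 200 µM in 1. In each gene the 3 groups of libraries did not overlap.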

How the results depend on the processing

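Each gene was tested in 17 to 19 of the 19 alternatives, since other filters left out some low genes. In all those in which the gene was tested, 8 of the 16 calls at 100 µM against control, 7 of the 13 at 200 µM against control and 13 of the 16 between the doses were kept, as were 10 of 19, 11 of 22 and 11 of 19 results that were not called. Of the log2 fold changes of single genes under these alternatives, 586, 601 and 628 stayed called or stayed not called in the 3 comparisons. Another 50, 38 and 19 lost their call, and 22, 16 and 13 gained one. A change of sign was counted apart only where the gene was called with or without the alternative. Values that changed sign but were called in neither are therefore among those that stayed not called. The 2 counted as turned round were both ABCD3 at 100 µM, 0.38 with GC offsets (edgeR adjusted p = 0.0216) and 0.38 with the replicate block and GC offsets (0.0413), and the cause was not tested. Leaving out 1 library at a time gave 5 to 13 ABC genes higher and 5 to 7 lower at 100 µM, 5 to 12 higher and 3 to 8 lower at 200 µM, and 6 to 8 higher and 7 to 10 lower between the doses, of 35 to 37 tested. The share of all genes called in the same fits was 24.5% to 56.1%, 26.2% to 53.8% and 34% to 54.2%. ABC genes lower at 200 µM against control numbered 2 of 30 tested in a fit of the 2 groups alone, which did not test ABCA12. With the replicate block they numbered 3 of 35. The share of all genes called in these 2 fits was 28.4% and 31.3%. Same-numbered libraries did not deviate together (correlations of -0.163 to 0.027, and -0.057 to 0.168 for other pairs). With 3 libraries in a group, this cannot exclude that the numbers mark pairs. The replicate block gave 7 higher and 6 lower, 6 and 3, and 7 and 8 ABC genes, and 4264, 4369 and 5404 genes in all. Genes called at 100 µM numbered 8417 with control and 100 µM alone and 7943 without replicate 3 at 200 µM, against 5181 in the fit of all libraries. On total counts alone, 2946 genes were higher and 2143 lower at 100 µM, against 2640 and 2541 with TMM, and 2629 were higher and 3629 lower between the doses, against 3133 and 3063. Depth limits ABCA12, ABCA9, ABCC6 and ABCD2, with at most 27 counts in a library.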

Other observations

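The summed level of the 45 ABC genes was 905 to 934 CPM in control cells, 911 to 944 CPM at 100 µM and 1072 to 1102 CPM at 200 µM, so that the libraries at 200 µM lay above all others; ABCC2 alone had 187 to 195 CPM at 200 µM and 62.3 to 65.0 CPM in control cells.

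ABC superfamily genes with other symbols were low. TAP1, a subunit of the peptide transporter for antigen presentation, had 0.970, 1.14 and 1.22 CPM in control cells, 1.16, 0.746 and 0.810 CPM at 100 µM and 1.56, 1.67 and 1.43 CPM at 200 µM. It was called only between the doses, with a log2 fold change of 0.78 ± 0.24 (edgeR adjusted p = 0.0245). Its partner TAP2 was called in no comparison. Both lie in the major histocompatibility region, where levels are taken as uncertain because a loss of reads was not tested. The chloride channel gene CFTR had no count in control cells, which allows up to 0.104 CPM in a library. TAP2 and CFTR were named after their values were seen.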
